A study of Homo sapiens with 6 samples.

Results

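The 47 genes described here encode the machinery of autophagy and of the lysosome, with the transcription factors that control both. The rule takes them by symbol and sets no threshold on a value, although the list was drawn up with earlier results of these data known. Each matched 1 row of the tables, which list 30735 genes. RNA was sequenced from PANC-1, an established human pancreatic ductal adenocarcinoma cell line grown in DMEM with serum. There were 3 samples transfected with siRNA against CD73, a cell-surface enzyme that makes adenosine and is encoded by NT5E, and 3 transfected with the negative control. Both groups received Lipofectamine 3000 in serum-free medium, so the reagent and the medium were shared, and the medium after transfection is not given in the sources used here. The siRNA has a single catalogue number, and the labels number the samples of each group 1 to 3 without saying what a number marks, while the study describes its knockdown experiments as separate. The p-values measure the spread between these samples.

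Autophagy wraps cytoplasm in a growing membrane, the phagophore, and delivers it to the lysosome. The ULK kinase complex starts the process, a class III PI3-kinase complex marks the membrane with PI3P, WIPI proteins read that mark, and an enzyme cascade attaches proteins of the ATG8 family to the lipid. The lysosome then degrades the cargo with acid hydrolases, in a lumen that a proton pump keeps acidic. The MiT/TFE factors TFEB, TFE3 and MITF switch on genes of both compartments, and in pancreatic ductal adenocarcinoma this programme is known for its high activity and for supplying the cells with nutrients.

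The values, whose unit is not given, were read as RPKM, read counts scaled to gene length and library size. Their sum over all genes ran from 253575.6 in CD73 siRNA replicate 3 to 273740.8 in control replicate 1, so samples are only roughly comparable. Levels compared between genes depend on the length used, that of all annotated exons merged, and on the counting of overlapping genes, which is not given. Library totals recovered from the steps in the values lay between 15009113 and 16836207 reads. NT5E, the target, was at 3.36, 6.85 and 8.22 RPKM in CD73 siRNA replicates 1, 2 and 3 and at 14.0, 13.9 and 17.1 RPKM in the controls, lower in every CD73 siRNA sample as labelled. Of the ductal epithelial markers, KRT8, KRT18 and KRT19 were expressed, while KRT7 was at most at 0.107 RPKM. The summed level of these 4 keratins was 70.2 to 99.4 RPKM in the CD73 siRNA samples and 133 to 250 RPKM in the controls. KRT8 (log2 fold change -1.27) and KRT18 (-0.68) carried that difference, and its part in the results below was not tested. Summed endocrine, immune and endothelial markers stayed at or below 0.246 RPKM in every sample. The acinar markers PRSS1, CPA1, CELA3A and PNLIP, the fibroblast marker DCN and the immune marker CD3E were not found among the listed genes. Of the fibroblast markers, COL1A1 alone was expressed, with sums of 8.97 to 16.2 and 10.5 to 19.1 RPKM, while COL1A2 and LUM were at or near 0.

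Most of the autophagy and lysosome genes were expressed at like levels in both groups. Of the 47, 45 reached 1 RPKM in at least 3 samples and were tested, and GABARAP and HEXA did not. WIPI2, which reads PI3P on the phagophore, was higher after CD73 siRNA, and ATG16L1, which WIPI2 recruits to that membrane, was lower. These 2 of 45 genes (4.44%) were past an unadjusted p of 0.01 in limma's moderated test on log2(RPKM + 1), against 3.13% of the 12527 genes tested (1.82% higher and 1.31% lower). At an unadjusted p below 0.05 there were 1 higher and 3 lower (4 in all), against 12.1% of all genes tested (7.22% higher and 4.9% lower). No member had a Benjamini-Hochberg adjusted p below 0.05, a threshold that 0.00798% of all genes tested (1 gene) passed, and the lowest adjusted p among the members was 0.303.
The groups did not overlap in 6 of the 45 members (13.3%), in 2 of them higher and in 4 lower after CD73 siRNA. Over all genes tested the share was 18.4%, with 10.3% higher and 8.07% lower. The median log2 fold change was 0.001 for the members and 0.009 for all genes, and 23 members had a higher and 22 a lower mean on the log2 scale, as 52% and 48% of all genes tested did. On the log2(RPKM + 1) scale, the 95% interval of the log2 fold change lay within 1.5-fold in either direction for 39 members (86.7%). This held for 68.9% of all genes tested. Because 1 is added to each value, changes in RPKM itself can be larger, most for weakly expressed genes. The members were also expressed more highly, with a median of 11.6 RPKM against 6.9 RPKM. On the log2(RPKM + 1) scale, the intervals of MITF, WIPI2, ATG16L1, MAP1LC3B, CTSA and NEU1 reached past 1.5-fold. In such bulk samples, a change in the share of cells and a change in RNA per cell cannot be told apart.

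**Figure D1:**
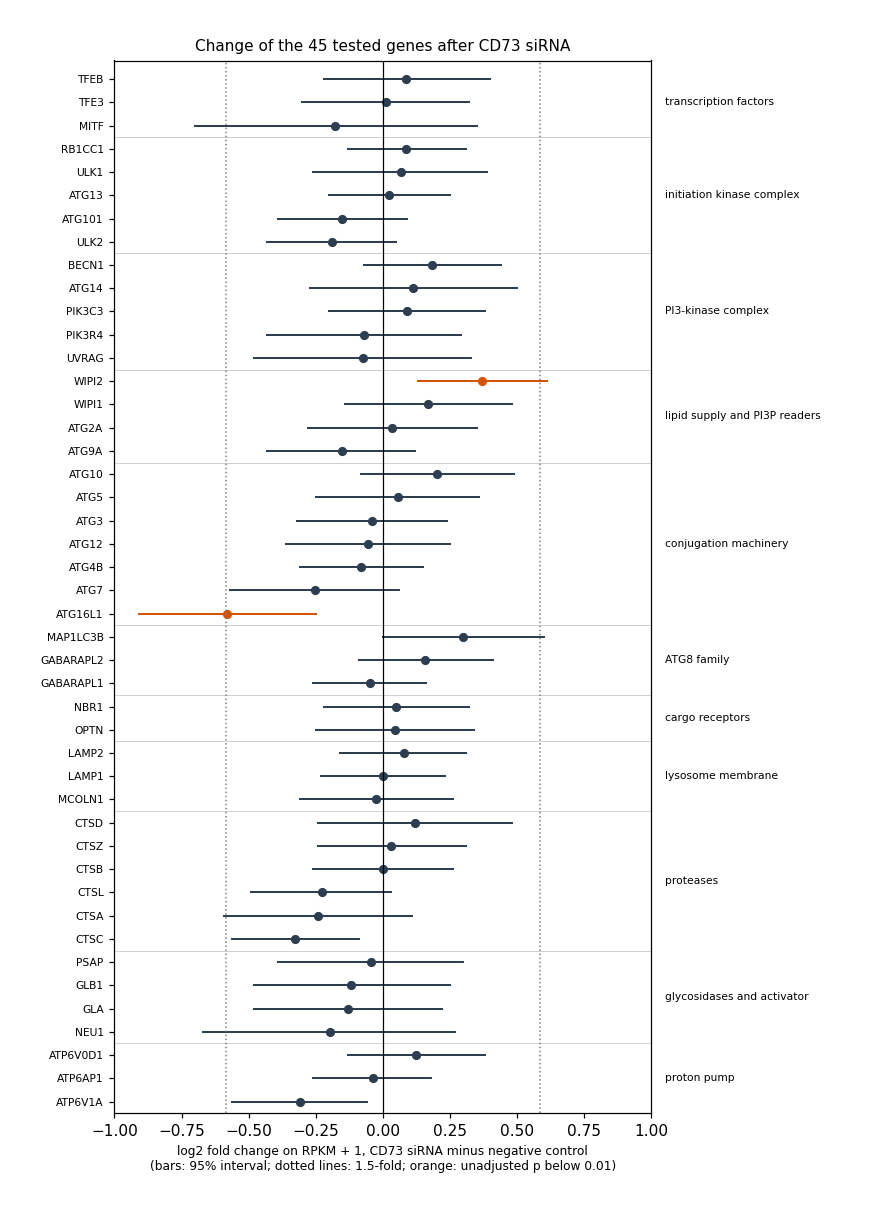
Log2 fold change on RPKM + 1 (CD73 siRNA minus negative control, n = 3 each) of the 45 tested genes by role, with limma's 95% interval as a bar and dotted lines at 1.5-fold. WIPI2 and ATG16L1, in orange, were past an unadjusted p of 0.01, on opposite sides of 0.

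WIPI2 (ENSG00000157954, chromosome 7, 5190188 to 5233826) had 10.1, 9.13 and 9.28 RPKM in CD73 siRNA replicates 1, 2 and 3 and 7.52, 7.42 and 6.49 RPKM in the controls. Every CD73 siRNA sample was above every control. The mean was 9.51 ± 0.54 RPKM after CD73 siRNA and 7.14 ± 0.57 RPKM in the controls (n = 3 per group, SD), 1.33 times the control level. This was a log2 fold change of 0.37 (SE 0.105, unadjusted p = 0.00771, adjusted p = 0.305 from limma). Between 874 and 1463 reads stood behind each value.
ATG16L1 (ENSG00000085978, chromosome 2, 233210051 to 233295674) brings the ATG12-ATG5 conjugate to the phagophore, where it directs lipid attachment of the ATG8 proteins. It had 13, 14.0 and 15.1 RPKM in the CD73 siRNA samples and 24.6, 17.3 and 23.1 RPKM in the controls. The groups did not overlap, and control replicate 2 lay nearest to the CD73 siRNA samples. The mean was 14.0 ± 1.06 RPKM after CD73 siRNA and 21.7 ± 3.82 RPKM in the controls (n = 3 per group, SD), 0.648 times the control level. This was a log2 fold change of -0.58 (SE 0.142, unadjusted p = 0.00353, adjusted p = 0.303 from limma). Neither gene shares exon bases with another annotated gene.
Within replicates 1, 2 and 3, WIPI2 differed by a log2 of 0.39, 0.27 and 0.46, and for ATG16L1 they were -0.87, -0.29 and -0.58. Both kept their direction in every replicate number. An exact permutation test of each gene alone gave p = 0.1 for each, two-sided and the smallest value that 3 samples against 3 allow. With any 1 sample left out, WIPI2 was no longer past an unadjusted p of 0.01 (p from 0.0102 to 0.0335), and its log2 fold change stayed between 0.311 and 0.404. ATG16L1 stayed past it without CD73 siRNA replicate 3 or control replicate 2 and not without any of the other four (p from 0.0106 to 0.0162), with log2 fold changes from -0.486 to -0.58 among those. In a linear model per gene without moderation the unadjusted p of ATG16L1 was 0.0218, while WIPI2 stayed past the threshold.

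**Figure D2:**
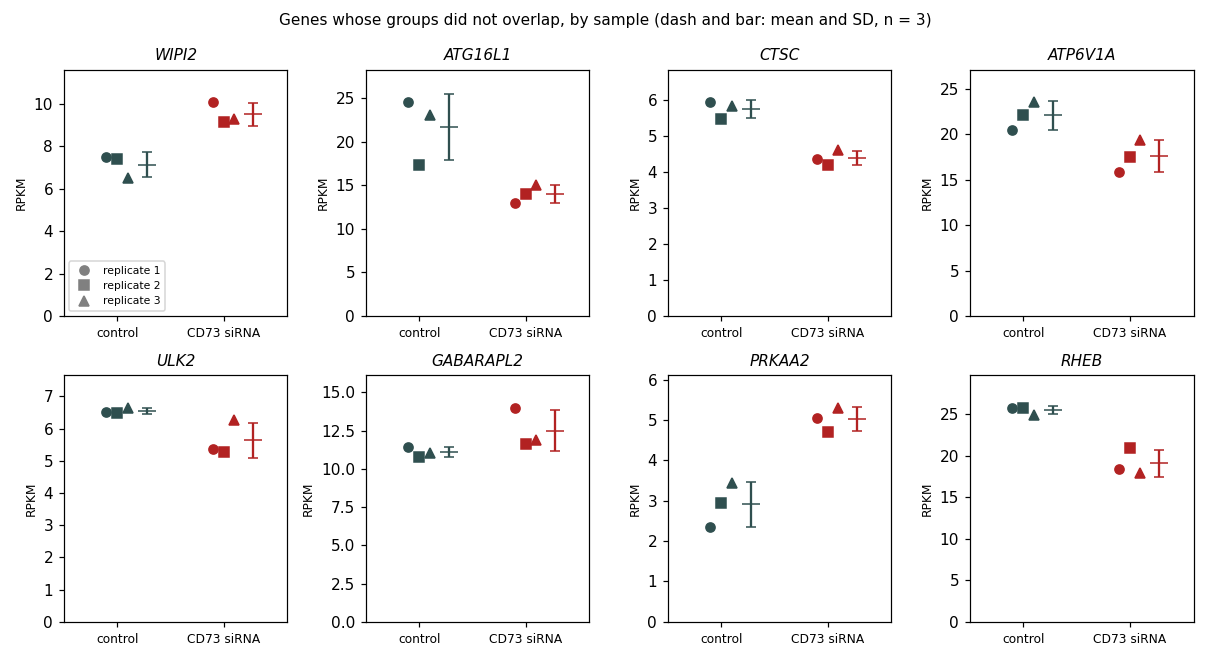
RPKM by sample (marker shape gives the replicate number) with mean and SD (n = 3) for the 6 members whose groups did not overlap and for PRKAA2 and RHEB, on axes that start at 0. In each panel the 3 CD73 siRNA samples lie wholly on one side of the 3 controls.

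The transcription factors were expressed at very different levels. TFE3 was the highest, with 21.1, 28.5 and 25.2 RPKM in the CD73 siRNA samples and 23.1, 27.8 and 23.0 RPKM in the controls. TFEB, the factor best known for this programme, was the lowest, with 1.17, 1.5 and 1.57 RPKM and 1.14, 1.37 and 1.29 RPKM, from 103 to 149 reads. The groups overlapped for all 3 factors. MITF, better known from melanocytes, ranged from 3.63 to 6.93 RPKM, and its highest sample in each group was the one numbered 2.

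The MiT/TFE factors bind an E-box, CACGTG, in a longer element named CLEAR. RefSeq promoter windows (GRCh38.p14, from 250 bases before to 50 after the start) were found for 40 of the 47 members. None was found for the lysosomal genes CTSB, ATP6V1A, PSAP, HEXA and LAMP2 or for RB1CC1 and UVRAG. The 8-base core TCACGTGA, which holds the E-box and reads alike on both strands, stood in 5 of the 40 windows (12.5%) and in 2% of the windows of all genes tested. The 7 bases TCACGTG, on either strand and including the 8-base matches, stood in 8 (20%) against 6.03%. The matches were concentrated in the lysosomal genes, where 6 of 12 windows (50%) held TCACGTG, while 2 of 28 windows (7.14%) did among the autophagy genes and transcription factors. Of the other pathway genes described below, 19 of 97 windows (19.6%) held TCACGTG and 11 (11.3%) the 8-base core, shares close to those of the members. The other 32 member windows held no E-box. The 8 windows are shown as 30 bases in the direction of transcription, to let the element and its surroundings be compared between the members that have it. Capitals mark the longest match.
MCOLN1 (chr19:7522598-7522627, + strand): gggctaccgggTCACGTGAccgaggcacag
LAMP1 (chr13:113297226-113297255, + strand): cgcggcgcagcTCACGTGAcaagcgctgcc
CTSA (chr20:45891298-45891327, + strand): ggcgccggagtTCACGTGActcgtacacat
ATP6V0D1 (chr16:67481199-67481228, - strand): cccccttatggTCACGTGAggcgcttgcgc
ATG3 (chr3:112561940-112561969, - strand): agagtctagtgTCACGTGAggccccggtgg
CTSD (chr11:1763956-1763985, - strand): ccggccgcgccCACGTGAccggtccgggtg
NEU1 (chr6:31862930-31862959, - strand): atgctgcgtgaTCACGTGggaggagatgag
ATG14 (chr14:55411833-55411862, - strand): aaacaaaatccCACGTGActggctctcctc
MCOLN1 encodes the calcium channel of the lysosome membrane, LAMP1 a structural protein there, and both windows held 2 copies of the 8-base core.
The 8 genes with TCACGTG had a median log2 fold change of -0.012 (from -0.24 to 0.12), and the 31 tested genes with a window but no match had one of 0.012 (from -0.58 to 0.37). The groups did not overlap in 0 of these 8 and in 5 of the 31, against 18.4% of all genes tested. ATP6V1A, whose groups did not overlap either, had no window and is in neither set. The match is a description of letters in this window, and whether any factor bound there was not measured.

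In the initiation complex, ULK1, the kinase that starts autophagy, was the highest member at 15.9, 22.2 and 16.9 RPKM in the CD73 siRNA samples and 16.9, 19.2 and 16.0 RPKM in the controls, which overlapped. Its relative ULK2 was the lowest, with 5.36, 5.26 and 6.26 RPKM against 6.51, 6.48 and 6.65 RPKM. All 3 CD73 siRNA samples of ULK2 were below the controls, at a log2 change of -0.19 (SE 0.105, unadjusted p = 0.109, adjusted p = 0.495 from limma). RB1CC1 (also FIP200), the scaffold of the complex, ATG13, its regulatory subunit, and ATG101, which stabilises ATG13, ranged from 6.55 to 17.8 RPKM, and the groups overlapped in each.
The class III PI3-kinase complex was expressed unevenly. PIK3R4, its regulatory kinase-like subunit, was the highest, with 12.1, 10.1 and 11.6 RPKM in the CD73 siRNA samples and 12.7, 9.28 and 14.1 RPKM in the controls. PIK3C3, the lipid kinase itself, was the lowest in RPKM, with 2.31, 2.06 and 1.91 RPKM and 1.81, 1.78 and 2.13 RPKM. These came from 419 to 565 reads over 15198 merged exon bases. BECN1 (Beclin 1) had means of 5.22 ± 0.41 and 4.48 ± 0.40 RPKM (n = 3 per group, SD), with overlapping groups, and 17.1% of its exon bases are shared with genes on the opposite strand, mainly CNTD1. ATG14 directs the complex to autophagy and UVRAG to endosomes, and both had overlapping groups between 4.49 and 10.3 RPKM.
Of the lipid suppliers, the scramblase gene ATG9A was the highest in its group, with 14.2, 14.7 and 17.1 RPKM against 19.3, 15.6 and 16.6 RPKM. For ATG9A, 38.8% of the exon bases are shared with a gene model on the same strand. WIPI1, the close relative of WIPI2, was the lowest, with 3.60, 2.69 and 3.70 RPKM against 3.15, 2.67 and 2.68 RPKM, and its groups overlapped. ATG2A, a lipid transfer protein, ranged from 3.62 to 5.12 RPKM.

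Among the conjugation genes other than ATG16L1, the groups overlapped in every one. ATG5 had 17.2, 14.3 and 12.3 RPKM in the CD73 siRNA samples and 13.7, 14.9 and 13.2 RPKM in the controls, and is the partner to which ATG12 is joined. ATG10, the enzyme that joins them, was the lowest of the cascade, at 2.89, 2.65 and 2.55 RPKM against 1.96, 2.55 and 2.15 RPKM. ATG7, the activating enzyme of both conjugation arms, had means of 3.93 ± 0.70 and 4.85 ± 0.52 RPKM (n = 3 per group, SD), with the CD73 siRNA sample lower in each of the 3 replicate numbers. Of its exon bases, 18.1% are shared with genes on the opposite strand, mainly VGLL4, and because the strand setting is not given the reads cannot be told apart. ATG3, ATG12 and the protease gene ATG4B ranged from 4.80 to 13.7 RPKM.
In the ATG8 family, MAP1LC3B, which encodes the common marker protein of autophagosomes, was the highest. It had 29.9, 27.4 and 22.2 RPKM in the CD73 siRNA samples and 21.0, 23.2 and 19.6 RPKM in the controls, and 1 control lay above the lowest CD73 siRNA sample. Its log2 fold change was 0.30 (SE 0.131, unadjusted p = 0.0509, adjusted p = 0.415 from limma). Reads can be divided between it and its near-identical copy MAP1LC3B2, which was at 0.377 to 1.19 RPKM.
GABARAPL2 had 14.0, 11.6 and 11.9 RPKM against 11.4, 10.8 and 11 RPKM. All CD73 siRNA samples were above the controls, by margins smaller than the spread among them, at a log2 change of 0.16 (SE 0.107, unadjusted p = 0.175, adjusted p = 0.576 from limma). Without CD73 siRNA replicate 1 the log2 change of GABARAPL2 was 0.08. GABARAPL1 was nearly level, at 12.9 to 13.5 and 13.1 to 14.0 RPKM. GABARAP itself was listed at 0.110, 0.0561 and 0 RPKM in the CD73 siRNA samples and 0.055, 0.0853 and 0.0294 RPKM in the controls, from at most 4 reads, with 55.7% of its exon bases shared with other gene models. How the counting treated reads that fall on more than 1 gene is not given, so its level is uncertain. Of the cargo receptors, OPTN, which binds tagged mitochondria and bacteria, had 10.8, 12.2 and 9.79 RPKM against 9.43, 12.1 and 10.2 RPKM. NBR1, a receptor for ubiquitin-tagged cargo, had 9.12, 9.90 and 8.55 RPKM against 8.70, 10.1 and 7.88 RPKM. The groups of both overlapped.

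**Figure D3:**
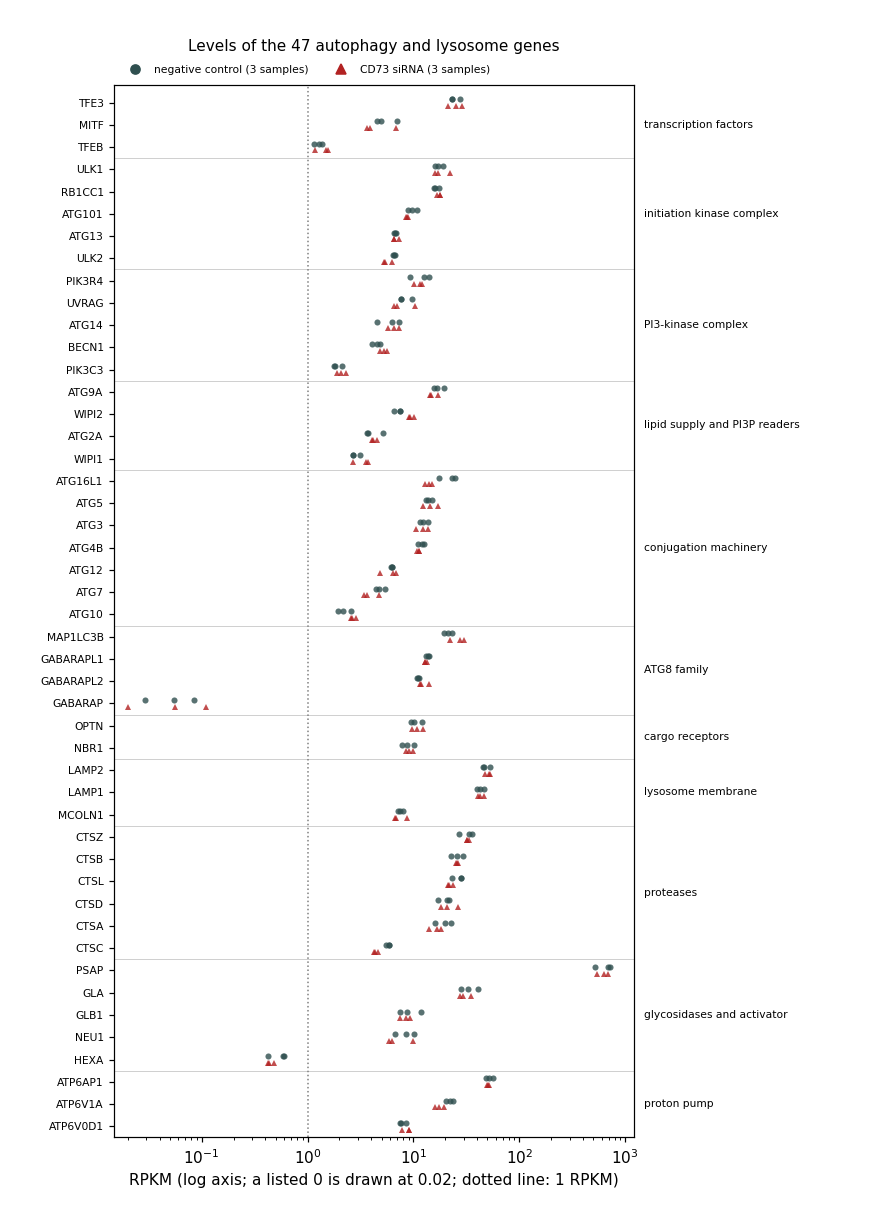
RPKM of all 47 genes in each sample on a log axis, by role (circles: negative control, triangles: CD73 siRNA, 3 samples each, a listed 0 drawn at 0.02). PSAP lay far above the rest, GABARAP and HEXA lay below 1 RPKM in every sample, and the groups of nearly all genes overlapped.

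The lysosomal genes included the most highly expressed member. PSAP, whose product is cut into the saposins that help hydrolases reach lipids, had 636, 538 and 690 RPKM in the CD73 siRNA samples and 725, 520 and 686 RPKM in the controls. The groups overlapped, and the samples numbered 2 were the lowest of both. Within the same list HEXA, a subunit of beta-hexosaminidase, was the lowest, with 0.424, 0.433 and 0.480 RPKM against 0.593, 0.419 and 0.586 RPKM from 82 to 120 reads, and 16.3% of its exon bases are shared with other genes. Its level, and with it its place in the list, is uncertain for the same reason as that of GABARAP. The glycosidase genes GLA, GLB1 and NEU1 ranged from 5.86 to 40.5 RPKM. All 4 tested genes of this list had a negative log2 fold change, from -0.20 to -0.04, as 48% of all genes tested did. None of the 4 was past the threshold (unadjusted p from 0.361 to 0.781 from limma).
Among the proteases, CTSZ was the highest, with 33.5, 32.1 and 32.3 RPKM in the CD73 siRNA samples and 35.4, 33.8 and 27.1 RPKM in the controls. CTSC, cathepsin C, which activates serine proteases by trimming their ends, was the lowest of this list in RPKM. Its 755 to 1089 reads were near the 828 to 1156 of CTSZ, but over 11421 merged exon bases against 2038. CTSC had 4.36, 4.20 and 4.59 RPKM against 5.94, 5.47 and 5.83 RPKM, and the groups did not overlap.
The CTSC mean was 4.38 ± 0.20 RPKM after CD73 siRNA and 5.75 ± 0.25 RPKM in the controls (n = 3 per group, SD), a log2 change of -0.33 (SE 0.1, unadjusted p = 0.0117, adjusted p = 0.327 from limma). The differences within replicates 1, 2 and 3 were -0.37, -0.32 and -0.29, the most even of the genes shown by sample along with ATP6V1A. In a fit with the replicate number as a block, its unadjusted p was 0.00664 (adjusted p = 0.119 from limma), past the 0.01 threshold. It was also past it in the linear model without moderation (unadjusted p = 0.00168). The members past the threshold in that model were CTSC and WIPI2 and not ATG16L1. With any 1 sample left out, CTSC was not past the threshold in limma without a block (unadjusted p from 0.0169 to 0.0492). The cysteine protease CTSB and the aspartic protease CTSD had overlapping groups, as did CTSA, which also protects NEU1 and GLB1 and shares 28.5% of its exon bases with genes on the opposite strand, mainly NEURL2. CTSL was at 22.3 ± 1.24 and 26.3 ± 2.90 RPKM (n = 3 per group, SD), lower after CD73 siRNA in each of the 3 replicate numbers with overlapping groups. For CTSD, 52.7% of the exon bases are shared with other gene models, 41.7% with one on the same strand.

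Of the lysosome membrane genes, LAMP2, a structural protein and receptor, was the highest, with 53.4, 47.9 and 51.5 RPKM against 46.3, 45.3 and 53.0 RPKM. MCOLN1 was the lowest, with 6.64, 6.84 and 8.78 RPKM against 7.17, 7.5 and 7.90 RPKM. LAMP1 had the same mean in both groups, 42.9 ± 2.71 and 42.9 ± 2.89 RPKM (n = 3 per group, SD), and the 95% interval of its log2 fold change ran from -0.23 to 0.23.
Of the 3 proton pump genes, ATP6V1A alone had groups that did not overlap. It encodes the subunit that splits ATP, and had 15.9, 17.5 and 19.4 RPKM in the CD73 siRNA samples and 20.5, 22.1 and 23.6 RPKM in the controls. All CD73 siRNA samples were below all controls, and the log2 fold change was -0.31 (SE 0.110, unadjusted p = 0.0228, adjusted p = 0.357 from limma). Within replicates 1, 2 and 3 the differences were -0.34, -0.31 and -0.27. In the blocked fit the unadjusted p was 0.00535 (adjusted p = 0.119 from limma). With any 1 sample left out and no block, the unadjusted p from limma lay between 0.0159 and 0.086.
ATP6AP1, an accessory subunit, was the highest of the pump genes, at 51.8, 51.1 and 49.5 RPKM against 56.6, 51.3 and 48.9 RPKM. ATP6V0D1, of the membrane part of the pump, was the lowest, at 9.17, 7.80 and 9.07 RPKM against 8.53, 7.68 and 7.40 RPKM. The groups of both overlapped. Of the 13 other pump genes tested, 0 were past an unadjusted p of 0.01 in limma (0 also with the block) and 1 was past 0.05, against 3.13%, 7.57% and 12.1% of all genes tested.

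Compared within replicate number, 9 members (20%) were higher after CD73 siRNA in all 3 numbers and 11 (24.4%) were lower in all 3, against 27% and 24.5% of all genes tested. The median difference of the members was -0.08, 0.01 and 0.01 in replicates 1, 2 and 3, against 0.018, -0.001 and 0.013 for all genes tested. The differences were most spread out in replicate 1, where they ran from -0.87 for ATG16L1 to 0.49 for MAP1LC3B. With the number as a block, 4 members (8.89%) were past an unadjusted p of 0.01, namely WIPI2 higher and ATG16L1, CTSC and ATP6V1A lower, against 7.57% of all genes tested (4.27% higher and 3.3% lower). Their lowest adjusted p was 0.113, and 0% of all genes had an adjusted p below 0.05 in that fit.

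**Figure D4:**
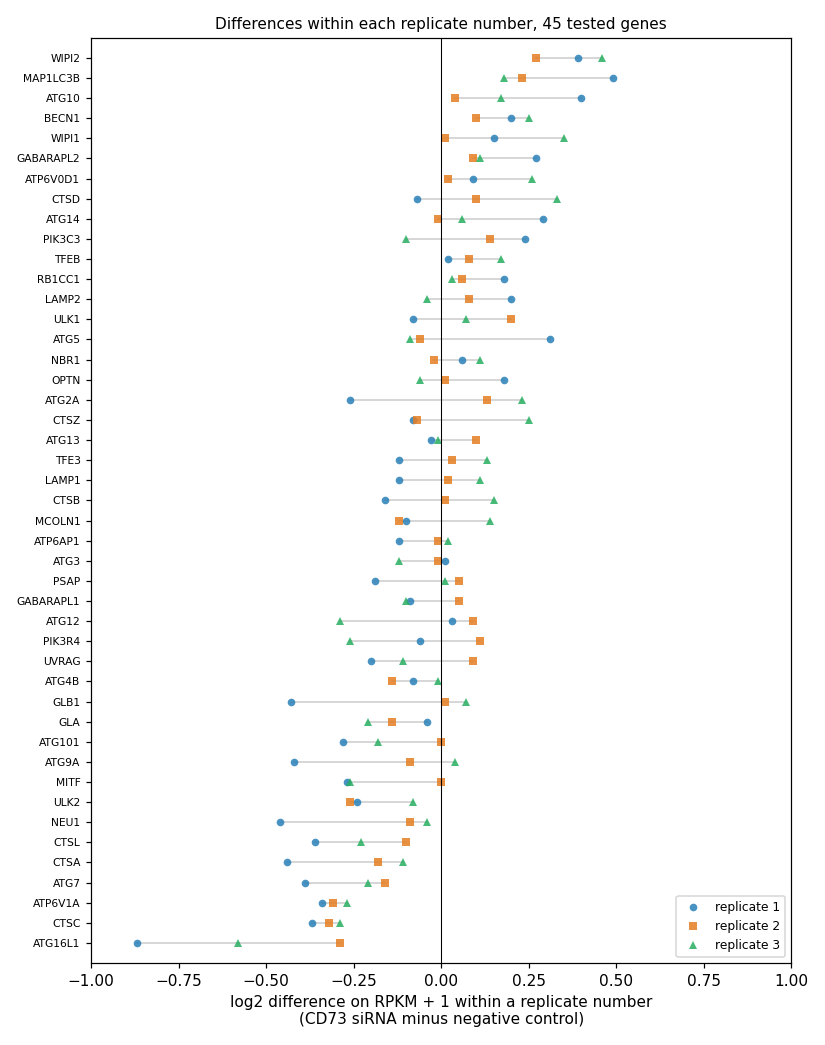
Log2 difference on RPKM + 1 between the CD73 siRNA and the negative control sample of the same number for the 45 tested genes, ordered by their mean. WIPI2 and MAP1LC3B lie to the right of 0 in all 3 numbers, and ATG16L1, CTSC and ATP6V1A to the left.

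Over all 45 tested members, the samples numbered 2 were the highest of both groups in 24.4% and the lowest of both in 28.9%. In 8 of the 16 tested lysosomal genes (50%) the samples numbered 2 were the lowest of both groups, and in 0 were they the highest of both. These 8 were PSAP, LAMP1, LAMP2, CTSA, CTSC, CTSD, CTSL and GLB1. Among the 29 tested autophagy genes and transcription factors, the samples numbered 2 were the highest of both groups in 11 (37.9%), among them TFE3, MITF, ULK1, UVRAG, ATG14, ATG7, NBR1 and OPTN, and the lowest of both in 5 (17.2%). Over all genes tested these samples were the highest of both groups in 22.7% and the lowest in 16.8%. The samples numbered 1 and 3 were each the highest of both groups in 25% of the lysosomal genes. They were the lowest of both in 18.8% and 12.5% of these genes. Among the autophagy genes and transcription factors, they were the highest in 6.9% and 3.4% and the lowest in 10.3% and 27.6%. For all genes tested, the shares were 13.3% and 17.8% highest and 14.0% and 21.3% lowest. UVRAG had 6.49, 10.3 and 6.94 RPKM in CD73 siRNA replicates 1, 2 and 3 and 7.61, 9.59 and 7.59 RPKM in the controls. Whether a number marks one experiment in both groups is not given in the sources used here.

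A further 133 genes of the pathway were listed by function, of which 120 were tested. Of these, 2 (1.67%) were past an unadjusted p of 0.01, against 3.13% of all genes tested, and both are on the list of 25 tested nutrient sensing genes. PRKAA2, the alpha2 catalytic subunit of AMPK, an energy sensor that activates ULK1, had 5.05, 4.71 and 5.31 RPKM in the CD73 siRNA samples and 2.35, 2.94 and 3.45 RPKM in the controls. All CD73 siRNA samples were above all controls, and the log2 fold change was 0.63 (SE 0.133, unadjusted p = 0.00146, adjusted p = 0.303 from limma). It was past an unadjusted p of 0.01 in every alternative fit tried.
The alpha1 subunit gene PRKAA1, chosen for comparison after its values were seen, was the more abundant form, at 33.9 ± 6.99 and 38.0 ± 7.54 RPKM (n = 3 per group, SD) at a log2 change of -0.16 (unadjusted p = 0.393 from limma). RHEB, the small GTPase that activates mTORC1 and so restrains autophagy, had 18.4, 20.9 and 17.9 RPKM against 25.7, 25.8 and 24.9 RPKM. All CD73 siRNA samples were below the controls, at a log2 change of -0.40 (SE 0.098, unadjusted p = 0.00358, adjusted p = 0.303 from limma). Leaving out either CD73 siRNA replicate 1 or 3, or control replicate 2 or 3, moved the unadjusted p of RHEB to between 0.0101 and 0.0158.
In the fit that blocks on replicate number, 6 of the 120 genes (5%) were past an unadjusted p of 0.01, against 7.57% of all genes tested, adding SQSTM1, SNAP29, FUCA1 and GNPTAB, all lower, and these 4 are named after their values were seen. SQSTM1, the cargo receptor p62, had 65.7, 103 and 58.1 RPKM in the CD73 siRNA samples and 113, 118 and 85.4 RPKM in the controls. The groups overlapped through the CD73 siRNA sample numbered 2, and the log2 fold change was -0.50 (SE 0.22, unadjusted p = 0.0511 without and 0.00401 with the block, adjusted p = 0.113 with it, from limma). Of its exon bases, 22% are shared with genes on the opposite strand, mainly MRNIP. Without CD73 siRNA replicate 2 and without a block, the log2 change of SQSTM1 was -0.75 (unadjusted p = 0.00205 from limma). Without CD73 siRNA replicate 3 instead, it was -0.338 (unadjusted p = 0.171 from limma). SQSTM1 was not past an unadjusted p of 0.01 with any other single sample left out. SNAP29, of the machinery that fuses autophagosomes with lysosomes, was at 5.11 ± 1.24 against 7.40 ± 0.76 RPKM without overlap, and GNPTAB, which builds the mannose 6-phosphate tag of hydrolases, at 6.88 ± 1.54 against 9.53 ± 1.47 RPKM (n = 3 per group, SD). FUCA1, a fucosidase, was at 6.99 ± 0.88 against 9.62 ± 2.39 RPKM (n = 3 per group, SD). In the unblocked fit, SNAP29 (-0.61) and GNPTAB (-0.58) passed the 0.01 threshold when CD73 siRNA replicate 3 was left out, and FUCA1 (-0.59) when control replicate 2 was, on the log2 scale. None of these genes passed it with any other single sample left out. SNAP29 was at -0.315 without CD73 siRNA replicate 1 (unadjusted p = 0.0642 from limma). GNPTAB was at -0.314 without CD73 siRNA replicate 2 (unadjusted p = 0.119 from limma), and FUCA1 at -0.26 without control replicate 1 (unadjusted p = 0.208 from limma). Without the block the 120 genes had a median log2 fold change of -0.028, with 53 higher and 67 lower.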

How the data were processed

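RNA-seq tables of 6 PANC-1 samples (3 CD73 siRNA, 3 negative control) were used. The deposited values were read as RPKM from the values, since the unit is not given in the sources used here: multiplied by merged exon length (GENCODE release 29, GRCh38), 95.49% to 95.62% of genes worth fewer than 1000 reads were within 0.05 of a whole read. The submitters' processing notes name bcl2fastq, Bowtie2 2.2.3, HTSeq 0.6.0 and hg38, while the annotation, the strand setting and the handling of overlapping genes are not given. Symbols were found for 30603 identifiers. Read numbers describe depth only and cover counting error only.

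Genes at 1 RPKM or more in 3 or more samples were compared on log2(RPKM + 1) with limma 3.58.1 (lmFit, eBayes with a trend, R 4.3.3), without a block, with Benjamini-Hochberg adjustment over all genes tested. This scale shrinks differences of weakly expressed genes. The call threshold was an unadjusted p of 0.01. The study also used 0.01 for its sequencing result, without saying there which test gave the p or whether it was adjusted, so its calls may differ. Samples with the same number deviated together from their group means (r = 0.197, 0.481 and 0.553 across genes for replicates 1, 2 and 3). The numbers in the labels were therefore taken as pairs in the blocked fit. The average of -0.206 between different numbers adds nothing to this, because deviations within a group sum to 0. The labels do not state such a pairing, and it was judged on the same values that the blocked fit tests. The p-values of the blocked fit are therefore to be read with caution. Intervals are 95% from the fit without a block. The script was tested on simulated data. The members and lists were chosen with earlier results of these data known. Values by sample were given for members past the threshold or with groups that did not overlap and for the highest and lowest member of each role, with ATG5 and UVRAG added after their values were seen. Other pathway genes were named where past the threshold.
Alternatives tried were a smaller pseudocount (0.1), keeping weakly expressed genes, median-of-ratios rescaling, the replicate block, a linear model without moderation, and leaving out each sample in turn or both samples numbered 2.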

Additional observations from a re-analysis of the deposited data

How the results depend on the processing

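WIPI2, ATG16L1, CTSC, ATP6V1A, ULK2, GABARAPL2, MAP1LC3B, PRKAA2, RHEB, SQSTM1, SNAP29, FUCA1 and GNPTAB kept their direction under every alternative tried. Of 38 other members, with no call in any setting, 3 changed sign under rescaling and 4 to 10 with 1 sample left out. No member had an adjusted p below 0.05 under any alternative. The log2 fold change of NT5E was past an unadjusted p of 0.01 except in an unmoderated linear model (log2 fold change -1.225, adjusted p = 0.529, beside 0.303 from limma). The count of members past this threshold was 2, and it was 4 with the replicate block and 1 with both samples numbered 2 left out, an alternative chosen after seeing the data. It ranged from 0 to 1 with 1 sample left out (0 without CD73 siRNA replicate 1 or 2 or negative control replicate 1 or 3). Of the other pathway genes, 2 were past it, 6 with the block, 4 without both samples numbered 2, and 1 to 3 with 1 sample left out. Over all genes 392 were past it, 948 with the block, 216 without moderation, and 116 (without CD73 siRNA replicate 1) to 792 (without negative control replicate 2) with 1 sample left out. With a pseudocount of 0.1 or with no filter, CTSC joined the 2 members, and without moderation the 2 members were CTSC and WIPI2. Median-of-ratios rescaling moved the median of all genes by -0.014. With the block, CTSC and ATP6V1A joined the 2 members, and SQSTM1, SNAP29, FUCA1 and GNPTAB joined the 2 other pathway genes. The cause of these shifts was not tested. Depth limits TFEB, at 103 to 149 reads a sample, and GABARAP, at most 4.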
